A study of Mus musculus with 52 samples.

Results

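Normal marrow at 24 weeks of age was set against normal marrow at 6 weeks in 14 female BALB/c mice without the MMTV-NeuT transgene (NeuT-). There were 5 mice of 24 weeks and 9 mice of 6 weeks, chosen by the age and genotype in their labels out of 52 arrays in the series. All 14 were nontransgenic sisters of MMTV-NeuT females, in which a mammary tumor virus promoter drives an activated rat Erbb2 oncogene. No treatment is given for any of them, and each array held RNA of whole marrow from 1 mouse. The comparison covers the span from adolescence to adulthood in mice that lack the oncogene. The 9 NeuT- mice of 12 weeks and the NeuT+ mice of 6 weeks (n = 9) and 24 weeks (n = 6), which do carry it, are used where they bear on a difference.

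Bone marrow produces granulocytes, monocytes, red cells, platelets and B cells throughout life. B cells mature there through pro-B and pre-B stages, and plasma cells formed in other lymphoid organs settle in the marrow and secrete antibody for long periods. Stromal cells, osteoblasts, sinusoidal endothelium, adipocytes and resident macrophages form the tissue around the blood-forming cells, in a skeleton that grows quickly in young mice and slowly in adults.

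Some arrays lay closer to another age or genotype than to their own group, and age was tied to the animals' numbers. The leading digits of the animal numbers in the titles fall into number series whose meaning is not given in the labels. The 6-week mice came from series 12, 14 and 17 with 3 mice each. At 24 weeks mouse 1 came from series 12 and mice 2 to 5 from series 13, which held no younger mouse, so that age and series 13 cannot be told apart in these 4 mice. Correlations were taken across the 21592 probes detected on at least 1 array. Mouse 1 of the 24-week group correlated with the mean of the 12-week NeuT- mice at 0.991 and with the 6-week mean at 0.988. With the other mice of its own group it correlated at 0.978. Mouse 4 of the 24-week group correlated with the 24-week NeuT+ mean at 0.993 and with its own group at 0.992. Mouse 8 of the 6-week group correlated with the 24-week mean at 0.981 and with its own group at 0.980. Mice 2, 4, 5 and 6 of the 6-week group correlated best with the 6-week NeuT+ mean, and mouse 3 with the 12-week NeuT- mean. For mice 5 and 6 the values with the NeuT+ mean were 0.992 and 0.993, against 0.987 and 0.990 with their own group. Raw Peg3 signals, which separate the genotypes in this series, lay between 119.7 and 199.6 in all 23 NeuT- mice and between 729.4 and 5885.8 in the 24 NeuT+ mice. The label for tumor grade reads mild or moderate dysplasia in 5 of the 6-week mice, normal in 1 and "no" in 3, and normal in all 5 mice of 24 weeks. All 11 measured markers of granulocytic, erythroid and B-lineage cells were detected on all 14 arrays, and 1 of them, Elane, passed the test. The arrays detected 15581 ± 685.8 probes at 24 weeks (SD, n = 5) and 15872 ± 623.5 at 6 weeks (SD, n = 9), without a difference beyond the spread (two-sided exact permutation p = 0.427).

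At 24 weeks several genes of plasma cells and primary granules were higher, and several genes of resident macrophages, developing B cells, stroma, endothelium, adipocytes and the replicative helicase were lower. Several immediate early genes were higher over all mice. With number series as a random block 0 of the 19 measured passed. Their median was -0.38 with number series as a fixed block, which also draws on NeuT+ mice of series 12. Of 11309 genes, 1209 passed the threshold (limma, Benjamini-Hochberg adjusted p of 0.05), which is 10.7%. Of these, 627 were higher (5.54% of all genes) and 582 lower (5.15%), and 47 and 62 of them differed by more than 2-fold. The median change over all genes was -0.01 log2 units. The values of the 2 ages did not overlap for 113 genes (0.999%), 45 higher (0.398%) and 68 lower (0.601%). Without 24-week mouse 1, 1931 genes passed (17.1%), 1017 higher (8.99%) and 914 lower (8.08%), and 1188 of them were among the 1209. Leaving out 24-week mouse 4 left 307 calls, and leaving out mouse 5 left 437. In a fit of the 14 arrays alone, without the spread of the other groups, 83 genes passed as higher and 81 as lower. The primary granule, pro-B and pre-B, mature B-cell and cell cycle lists then held 0 calls. The macrophage list held 5 lower genes, the stromal list 6 lower and 1 higher, and the plasma cell list 3 higher and 1 lower. RNA of whole marrow does not separate fewer cells of a type from less RNA per cell, and the 2 cannot be told apart for any gene below. The members of 34 gene lists are counted in the text, and the shares of called members are plotted for the 25 lists that had any.

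**Figure D1:**
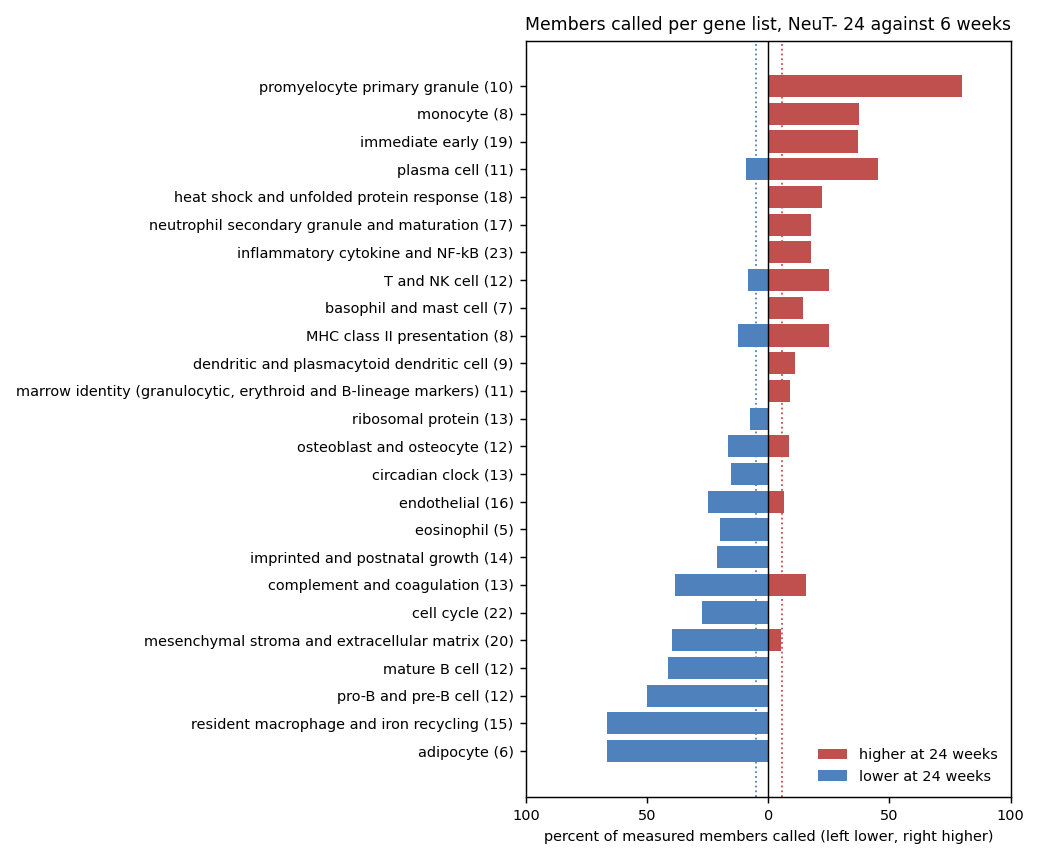
Percent of measured members of each gene list that passed at an adjusted p of 0.05, drawn to the right for genes higher at 24 weeks and to the left for genes lower, with the number of measured members in parentheses. Dotted lines mark the shares over all genes, 5.54% higher and 5.15% lower, and the longest bars are the 8 of 10 primary granule genes to the right and the 10 of 15 macrophage genes and 4 of 6 adipocyte genes to the left.

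The IgG1 heavy chain gene had the largest rise among the named genes. Ighg1, the constant region of the IgG1 heavy chain, stood at log2 levels of 10.90, 11.77, 11.42, 11.75 and 11.83 in 24-week mice 1 to 5. In the 6-week mice it ran from 5.84 through a median of 6.93 to 7.71. The groups lay far apart, and the 12-week mice filled the gap between them with levels from 7.91 to 10.14. Ighg1 was 25.3-fold higher at 24 weeks (log2 change 4.66 ± 0.317 SE, n = 5 and 9, limma adjusted p = 8.86e-15), and 3.96 higher within series 12 (adjusted p = 0.00508). Its probe can bind RNA of other IgG constant regions, and the value is uncertain to that extent.

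Of 11 measured plasma cell genes, 5 were higher and 1 was lower, with a median change of 0.30 against -0.01 over all genes. With number series as a random block 3 passed as higher and 1 as lower. The mean level of the list ran from 8.33 to 8.71 at 6 weeks and from 8.82 to 9.10 at 24 weeks, without overlap. Jchain, which encodes the chain that joins IgM and IgA units, stood at 7.49, 7.27, 7.80, 7.36 and 6.51 in 24-week mice 1 to 5 and at 4.77, 5.02 and 5.46 (lowest, median and highest) at 6 weeks. It was detected on 4 of 5 arrays at 24 weeks and on none of the 9 at 6 weeks, so that its fold is a bound: at least 2.07-fold higher (log2 change 2.19 ± 0.185 SE, limma adjusted p = 7.66e-12). Such bounds compare the bright group's mean with a floor for the dim group, which is averaged over its arrays and is, on each, the lowest detected signal or the probe's own if that is higher. Tnfrsf17, also known as BCMA, is a receptor for survival factors of plasma cells. It stood at 6.70, 7.75, 7.81, 7.16 and 7.34 at 24 weeks and at 4.87, 5.05 and 5.18 at 6 weeks, and was at least 2.17-fold higher (2.32 ± 0.160 SE, adjusted p = 8.86e-15). Derl3, a component of the machinery that removes misfolded proteins from the endoplasmic reticulum, stood at 6.78, 6.92, 7.15, 7.38 and 6.72 and at 5.16, 5.35 and 5.87. It was at least 1.69-fold higher (1.60 ± 0.147 SE, adjusted p = 8.19e-11). All 5 old mice exceeded all 9 young mice for each of these 3 genes, and the 12-week means of 5.47, 5.65 and 5.54 lay nearer to the 6-week means of 5.10, 5.03 and 5.39.

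Within series 12 the changes were 2.26 for Jchain (adjusted p = 0.00508), 1.68 for Tnfrsf17 (adjusted p = 0.0189) and 1.28 for Derl3 (adjusted p = 0.193). Xbp1, the transcription factor that drives the secretory program of plasma cells, rose by 0.31 ± 0.0987, and Fkbp11, a foldase of secretory cells, by 0.72 ± 0.211. Their calls were lost without 24-week mouse 4 (adjusted p of 0.162 and 0.154), and their changes within series 12 were 0.04 and 0.10. Slamf7, a receptor found on plasma cells, NK cells and other leukocytes, was lower by 1.14 log2 units (-1.14 ± 0.236, adjusted p = 0.00166). The plasma cell genes Mzb1 and Irf4, which B cells also express, stood at -0.38 and -0.55 without passing. Tnfsfm13 is a locus that joins Tnfsf12 to Tnfsf13, the gene of the plasma cell survival factor APRIL. It stood at 11.53, 12.05, 11.86, 12.18 and 12.06 at 24 weeks and at 9.83, 10.56 and 10.81 at 6 weeks, without overlap (1.44 ± 0.122, adjusted p = 7.66e-12). It was named after its value was seen, and its probe cannot separate the joined transcript from those of the overlapping genes.

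The promoters of the 3 secretory and receptor genes are shown because these genes rose together from a level below detection. Sequences are RefSeq's on GRCm38.p6, from 250 bases before to 50 bases after the start of the gene, written along the gene's strand. Capitals mark ACGTG on either strand, the core letters of the element bound by XBP1, and matches that overlap run together. Jchain lies on the minus strand at chr5:88527848-88528147, Tnfrsf17 on the plus strand at chr16:11313559-11313858 and Derl3 on the plus strand at chr10:75893148-75893447. Jchain held 1 match, Derl3 2 that overlap in 1 palindrome, and Tnfrsf17 0, while 19.7% of 27025 promoters of this length hold at least 1. A match is a run of letters and not a measured binding site.
Jchain: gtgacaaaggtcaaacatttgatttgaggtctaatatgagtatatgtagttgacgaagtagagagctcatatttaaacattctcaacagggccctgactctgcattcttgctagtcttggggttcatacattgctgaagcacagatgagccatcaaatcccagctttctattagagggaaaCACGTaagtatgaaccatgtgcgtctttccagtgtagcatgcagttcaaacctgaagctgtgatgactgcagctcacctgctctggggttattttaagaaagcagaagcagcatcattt
Tnfrsf17: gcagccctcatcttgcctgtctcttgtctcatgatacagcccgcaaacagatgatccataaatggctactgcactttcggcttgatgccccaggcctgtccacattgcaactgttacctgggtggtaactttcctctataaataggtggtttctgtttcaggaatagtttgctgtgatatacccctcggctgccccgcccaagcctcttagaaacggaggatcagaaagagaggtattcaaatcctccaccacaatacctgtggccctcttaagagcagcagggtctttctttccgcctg
Derl3: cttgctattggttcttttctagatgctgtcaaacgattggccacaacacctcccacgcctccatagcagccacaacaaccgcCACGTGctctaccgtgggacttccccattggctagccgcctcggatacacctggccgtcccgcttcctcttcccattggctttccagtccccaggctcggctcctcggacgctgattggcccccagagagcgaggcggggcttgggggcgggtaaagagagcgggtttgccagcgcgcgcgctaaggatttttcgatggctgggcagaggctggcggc

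**Figure D2:**
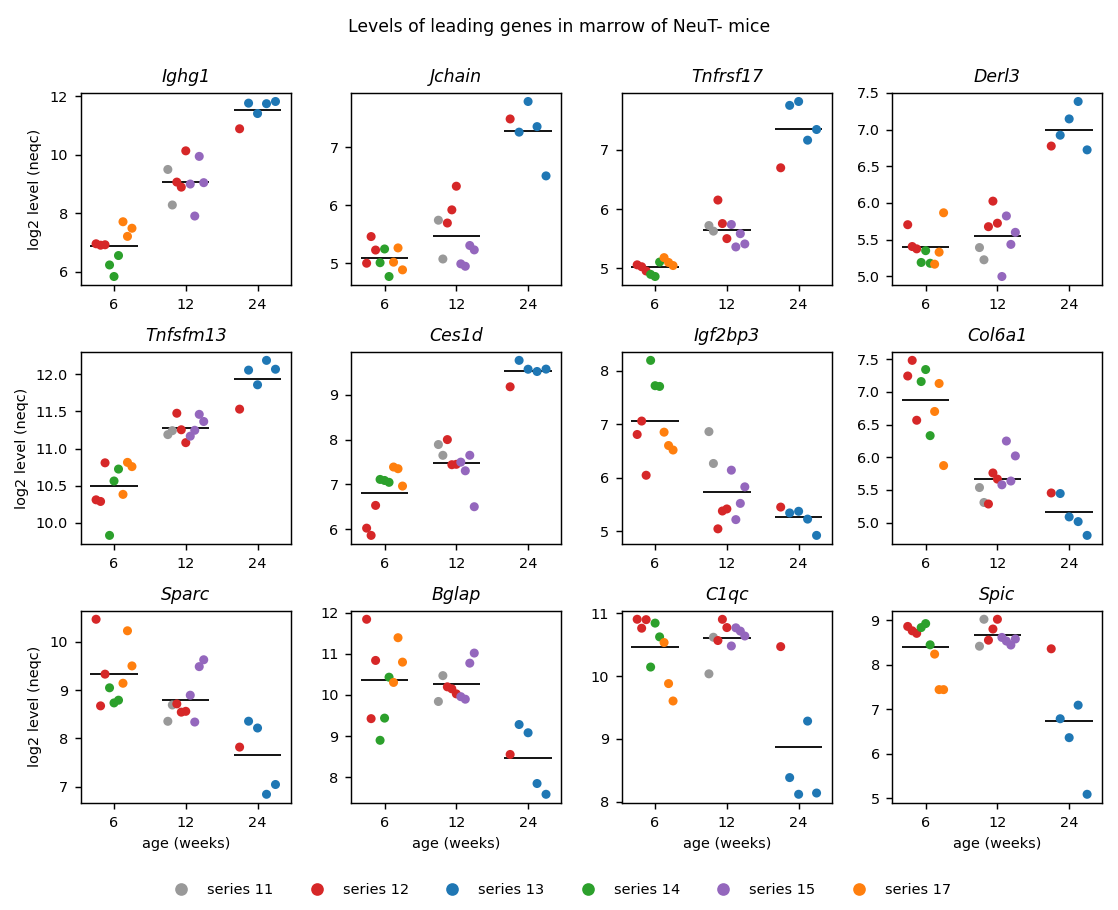
Log2 level of 12 named genes in each NeuT- mouse at 6 (n = 9), 12 (n = 9) and 24 weeks (n = 5), 1 point per mouse, coloured by number series, with the group mean as a line. Ighg1 ran from 5.84 to 7.71 at 6 weeks and from 10.90 to 11.83 at 24 weeks, and the 24-week mouse of series 12 lay with the young mice for C1qc (10.47) and Spic (8.36) and with the old mice for Ighg1, Jchain, Ces1d, Igf2bp3 and Col6a1.

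Genes of early granulocytes rose by small amounts. Of 10 measured primary granule genes of promyelocytes, 8 were higher and 0 lower, with a median of 0.37. Ctsg, the granule protease cathepsin G, stood at 14.77, 14.97, 14.92, 15.36 and 15.44 in 24-week mice 1 to 5 and at 14.16, 14.67 and 14.96 at 6 weeks. Mice 4 and 5 were highest, and the groups overlapped in mice 1 and 3. Ctsg rose by 0.48 ± 0.104 log2 units (limma adjusted p = 0.00249). Prtn3, the protease proteinase 3, rose by 0.40 ± 0.112, Ms4a3, a marker of granulocyte and monocyte progenitors, by 0.41 ± 0.0872, and Nkg7, a granule membrane protein, by 0.52 ± 0.127. Mpo, the myeloperoxidase gene, lay at the top of the range at 15.91 in both ages, where little difference could show. With number series as a random block 2 genes of the list passed. Within series 12 the list's median was 0.15 and Ms4a3 stood at -0.02. The calls of Prtn3, Nkg7 and Elane were lost without 24-week mouse 4 (adjusted p of 0.101, 0.0726 and 0.161).

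Of 17 genes of neutrophil maturation 3 rose and 0 fell (median 0.24): the collagenase gene Mmp8 (0.92 ± 0.291), the integrin gene Itgam (0.41) and the interleukin-1 decoy receptor Il1r2 (0.66 ± 0.216). All 3 calls were lost without 24-week mouse 4 (adjusted p of 0.123, 0.182 and 0.264), and also without mouse 5. The granule genes Ltf, Ngp, Lcn2 and S100a8 ranked between 1 and 24 among 45281 probes on all 14 arrays, at mean levels from 15.91 to 15.99 where the highest level of any probe was 16.01. Little difference could show there, and their changes are not read. Olfm4, a granule protein of a subset of neutrophils that was named after its value was seen, stood at 12.95, 12.85, 12.52, 12.91 and 12.50 at 24 weeks and at 11.28, 11.75 and 12.73 at 6 weeks. The groups overlapped in 2 old mice. It rose by 0.84 ± 0.183 (adjusted p = 0.00262), and by 1.49 within series 12 (adjusted p = 0.0106). Of 8 monocyte genes 3 rose and 0 fell (median 0.29): the chemokine receptor gene Ccr2 (0.66 ± 0.222), Ly86 (0.36 ± 0.111) and Klf4, which is also in the immediate early list. A random block for number series left 1 monocyte gene past the threshold. Without 24-week mouse 4 the adjusted p was 0.206 for Ccr2 and 0.0864 for Ly86.

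Basophil and eosinophil genes gave 1 call each. Fcer1a, the chain of the IgE receptor that binds IgE on basophils and mast cells, stood at 10.88, 10.82, 10.95, 10.74 and 10.75 at 24 weeks and at 8.82, 9.76 and 10.09 at 6 weeks. The groups did not overlap, and the rise of 1.14 ± 0.185 (adjusted p = 6.19e-05) was 1.04 within series 12. The 12-week mean of 10.65 lay near the 24-week mean of 10.83. It was the 1 called gene of 7 on its list, and the basophil protease gene Mcpt8 stood at 0.40 and did not pass. The eosinophil list had a median of -0.53 over 5 genes and -1.52 within series 12. With number series as a fixed block, which also draws on NeuT+ mice of series 12, the list stood at a median of -1.67. Its mean level lay between 11.91 and 12.29 in the 6-week mice of series 12 and 14, between 10.11 and 10.36 in those of series 17 and between 10.52 and 10.99 at 24 weeks. Within series 12 Epx, a peroxidase of eosinophil granules, stood at -1.98, Prg3 at -1.82 and Ear6 at -1.52. Ccr3, the eotaxin receptor of eosinophils, was the 1 called gene of the list. It stood at 6.88 in 24-week mouse 1 and at 4.95, 4.95, 5.31 and 5.38 in mice 2 to 5, against 5.70, 6.72 and 7.67 at 6 weeks, and was detected on 1 of 5 and 8 of 9 arrays. Its fitted change was -1.27 ± 0.241 (adjusted p = 0.000606) and -0.20 within series 12. Most old arrays lay below detection, and with undetected arrays set at the lowest detected signal the difference was -0.36.

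Most measured genes of resident macrophages were lower at 24 weeks, in 4 of the 5 old mice. Of 15 measured macrophage and iron recycling genes 10 were lower and 0 higher, with a median of -1.38. The random block for number series also left 10 lower and 0 higher. Spic, the transcription factor of iron-recycling macrophages, stood at 8.36 in 24-week mouse 1 and at 6.79, 6.37, 7.10 and 5.09 in mice 2 to 5, against 7.45, 8.71 and 8.93 at 6 weeks. Mouse 1 lay inside the young range and mice 2 to 5 below it. The change was -1.67 ± 0.296 (limma adjusted p = 0.000217). The same split held for Axl, a receptor tyrosine kinase for the uptake of dying cells, with 11.61 in mouse 1 and 9.51, 9.41, 10.02 and 9.27 in the others, against 10.69, 11.61 and 12.25 (-1.59 ± 0.242, adjusted p = 2.79e-05). C1qc, a chain of the complement starter C1q, stood at 10.47 in mouse 1 and at 8.39, 8.12, 9.28 and 8.14 in the others, against 9.60, 10.62 and 10.90 (-1.59 ± 0.249, adjusted p = 4.26e-05). The mannose receptor gene Mrc1 changed by -1.27 ± 0.219, C1qa by -1.41 ± 0.245 and C1qb by -1.55 ± 0.240.

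Genes outside the list that were named for their large falls showed the same split of mice. Cd209f, a C-type lectin, stood at 7.30 in mouse 1 and at 4.99, 5.11, 5.58 and 4.84 in mice 2 to 5, against 6.09, 7.93 and 8.13 at 6 weeks, and was detected on 1 of 5 and 8 of 9 arrays (-1.98 ± 0.324, adjusted p = 7.38e-05). With undetected arrays set at the lowest detected signal the difference was -1.01. Fcna, the recognition lectin ficolin A, stood at 12.13 in mouse 1 and between 9.16 and 10.43 in the others, against 10.85, 11.75 and 12.34 (-1.63 ± 0.282). Itgad, an integrin chain of tissue macrophages, stood at 9.61 and between 7.26 and 8.16, against 8.61, 9.62 and 10.18 (-1.64 ± 0.266). Within series 12 the median of the macrophage list was -0.29, and without mouse 1 it was -1.70 with 11 genes lower. Among the 6-week mice those of series 17 were lowest, for example at a mean of 7.71 for Spic against 8.78 and 8.74 in series 12 and 14. Members without a call included Slc40a1, the iron exporter ferroportin, at -0.14 and Hmox1, the heme-degrading oxygenase, at -0.31. Of 13 complement and coagulation genes 5 were lower, 3 of them the C1q chains, and 2 higher, the clotting factor genes F5 and F10 (both 0.64). C2, the classical pathway protease precursor, stood between 5.31 and 5.69 at 24 weeks and between 5.78 and 7.47 at 6 weeks, and was at least 1.32-fold lower (adjusted p = 3.7e-05), with -1.17 within series 12.

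Some genes of developing and mature B cells were lower at 24 weeks, mostly in mice 2 to 5. Of 12 pro-B and pre-B genes 6 were lower and 0 higher (median -0.70), and of 12 mature B-cell genes 5 were lower and 0 higher (median -0.48). In the fit with number series as a random block 1 and 3 genes passed. Ebf1, the transcription factor that commits cells to the B lineage, stood at 9.70 in 24-week mouse 1 and at 8.64, 8.80, 7.94 and 8.72 in mice 2 to 5, against 9.06, 9.35 and 10.02 at 6 weeks. Mouse 1 lay inside the young range, and mice 2 to 5 lay below it. The change was -0.67 ± 0.176 (limma adjusted p = 0.0126), -0.90 without mouse 1 and 0.35 within series 12. Cd79b, which carries signals from surface immunoglobulin in B cells, stood at 14.12 in mouse 1 and at 13.38, 13.63, 12.08 and 12.95 in the others, against 13.55, 13.94 and 14.35 (-0.70 ± 0.211, adjusted p = 0.0266). Blk, a kinase that acts downstream of it, stood at 11.59 in mouse 1 and at 10.79, 9.66 and 10.74 in mice 2, 4 and 5, with mouse 3 between these and the young mice at 11.28, 11.62 and 11.89 (-0.90 ± 0.227, adjusted p = 0.00947). Mouse 4 was the lowest for each of these 3 genes, and mouse 3 reached the young range for Cd79b.

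The other named B-lineage genes changed by similar amounts. The interleukin-7 receptor Il7r changed by -0.73 ± 0.215, the surrogate light chain partner Vpreb3 by -0.77 ± 0.233, Lef1, a transcription factor of early B cells, by -0.96 ± 0.265, the inhibitory receptor Cd22 by -0.84 ± 0.213 and Fcrla by -0.79 ± 0.217. Igll1, a surrogate light chain, stood at -0.89 ± 0.302 with an adjusted p of 0.0498, and it stood at -0.91 within series 12, where the 8 others lay between -0.14 and 0.35. Leaving out mouse 4 ended the calls of all 9 of these genes, with Ebf1 at -0.46 (adjusted p = 0.135), Cd79b at -0.41 (0.251), Blk at -0.62 (0.114), Cd22 at -0.54 (0.128), Il7r at -0.54 (0.174), Vpreb3 at -0.49 (0.24), Lef1 at -0.80 (0.11), Fcrla at -0.50 (0.179) and Igll1 at -0.74 (0.209). Igll1 was also lost without mouse 1 (adjusted p = 0.0614). Within series 12 the list medians were 0.26 and -0.01.

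**Figure D3:**
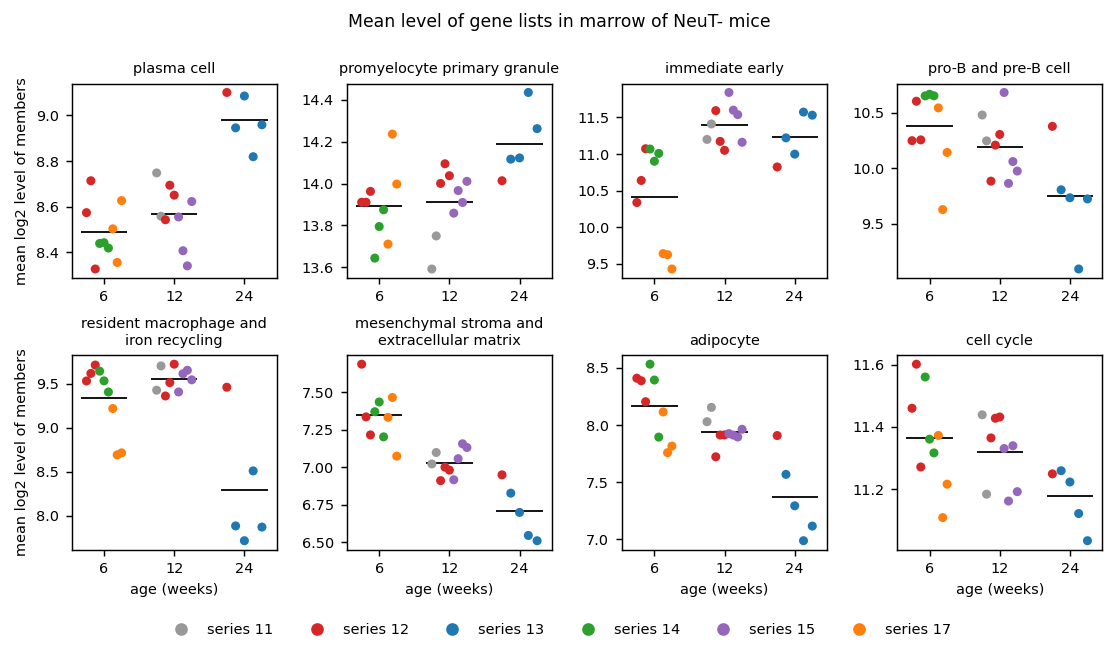
Mean log2 level over the measured members of 8 gene lists in each NeuT- mouse at 6 (n = 9), 12 (n = 9) and 24 weeks (n = 5), 1 point per mouse, coloured by number series, with the group mean as a line. The 24-week mouse of series 12 lay at 9.46 for the macrophage list, inside the 6-week range of 8.69 to 9.71, while mice of series 13 lay between 7.71 and 8.51, and for the stroma list the 24-week mice (6.51 to 6.95) all lay below the 6-week mice (7.07 to 7.69).

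Several genes of stroma and matrix were lower at 24 weeks. Of 20 measured genes 8 were lower and 1, Thy1, higher, with a median of -0.22, and the mean level of the list did not overlap between the ages. The median was -1.14 over probes detected on 3 of the 14 arrays, and with number series as a random block 4 genes passed as lower and 0 as higher. Sparc, a collagen-binding matrix protein, stood at 7.82, 8.35, 8.21, 6.84 and 7.05 in 24-week mice 1 to 5 and at 8.67, 9.14 and 10.46 at 6 weeks. All old mice lay below all young mice (-1.67 ± 0.376, limma adjusted p = 0.00381), and the change within series 12 was -1.67. Col6a1, a chain of collagen VI, stood between 4.80 and 5.45 at 24 weeks, where no array detected it, and at 5.87, 7.13 and 7.48 at 6 weeks. It was at least 1.47-fold lower (adjusted p = 1.61e-05), and had already fallen to a mean of 5.67 at 12 weeks. Bgn, the proteoglycan biglycan, stood at 7.68, 7.86, 7.46, 7.29 and 7.10 and at 8.34, 8.69 and 8.92, without overlap (-1.14 ± 0.199, adjusted p = 0.000163).

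Cxcl12, the chemokine that holds blood-forming cells in the marrow, stood at 10.71, 9.94, 9.69, 9.38 and 9.25 at 24 weeks and at 9.78, 11.17 and 12.17 at 6 weeks. Mice 3 to 5 lay below the young range and mice 1 and 2 within it (-1.45 ± 0.302, adjusted p = 0.00171). Dcn, the proteoglycan decorin, stood at 7.44, 7.33, 6.58, 5.64 and 5.42 and at 7.25, 8.50 and 9.48, and was detected in 3 of 5 old mice (-1.91 ± 0.401, adjusted p = 0.00188). Igfbp5, a binding protein of insulin-like growth factors, changed by -1.78 ± 0.332 (adjusted p = 0.000453), and by -0.75 within series 12. With number series as a fixed block the changes of these 3 genes were smaller, at -0.50, -0.69 and -0.38.

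Bglap and Bglap2, near-identical genes of the bone matrix protein osteocalcin whose probes may bind each other's RNA, were the 2 lower genes of 12 on the osteoblast list (median -0.32). Bglap stood at 8.55, 9.28, 9.08, 7.85 and 7.59 at 24 weeks and at 8.90, 10.43 and 11.84 at 6 weeks, with mice 2 and 3 inside the young range (-1.90 ± 0.518, adjusted p = 0.015). The changes within series 12 were -2.15 for Bglap and -1.98 for Bglap2. Both calls were lost without 24-week mouse 4 (adjusted p of 0.077 and 0.0794) and without mouse 5 (0.0729 and 0.0678). Col1a1, the main collagen of bone, stood at -1.51 without passing. The higher gene of the list was Fkbp11, named above among plasma cell genes. Cartilage genes of the growth plate gave 0 calls of 5 measured, with a median of -0.08. That median was -0.83 over probes detected on 3 of the 14 arrays.

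Endothelial genes had 4 members lower and 1, Tie1, higher of 16 (median -0.30). The random block for number series gave 6 lower and 0 higher. Cldn5, a tight junction protein of vessels, was detected on 6 of 9 arrays at 6 weeks and on none at 24 weeks. It stood between 5.14 and 5.68 at 24 weeks and at 5.89, 6.56 and 6.84 at 6 weeks, without overlap, and was at least 1.16-fold lower (adjusted p = 0.00061). Robo4, an endothelial guidance receptor, changed by -1.02 ± 0.198, Stab2, a scavenger receptor of sinusoids, by -0.87 ± 0.149, and Emcn, the sinusoidal sialomucin endomucin, by -0.77 ± 0.168. Within series 12 these 4 genes stood at -0.98, -1.25, -0.67 and -0.63. Of 6 adipocyte genes 4 were lower and 0 higher (median -0.78), and 2 passed with number series as a random block. The median was -0.42 within series 12 and -0.14 with no detection filter. Adipoq, the adipocyte hormone adiponectin, stood at 6.93, 6.20, 6.17, 5.49 and 5.38 at 24 weeks and at 6.56, 7.45 and 8.70 at 6 weeks (-1.51 ± 0.306, adjusted p = 0.00132). It was detected on 1 of the 5 old arrays, and the difference was -1.05 with undetected arrays set at the lowest detected signal. Pparg, the nuclear receptor of fat cell formation, which macrophages also express, changed by -1.23 ± 0.221. It stood at 8.16 in mouse 1, inside the young range of 7.29 to 8.95, and between 6.4 and 7.01 in mice 2 to 5. The calls of Lpl, a lipase of fat uptake (-0.63 ± 0.165), and Car3, a carbonic anhydrase abundant in fat (-0.94), were lost without mouse 4 (adjusted p of 0.11 and 0.0587).

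Subunits of the replicative helicase made up most of the cell cycle genes that fell. Of 22 measured genes 6 were lower, 0 higher and 16 did not pass, with a median of -0.22. They were Mcm2 (-0.33), Mcm3 (-0.46), Mcm4 (-0.39), Mcm5 (-0.32) and Mcm6 (-0.29), which encode 5 subunits of the helicase that opens DNA for replication, and the topoisomerase gene Top2a (-0.39). Mcm3 stood at 10.88, 10.96, 10.69, 10.70 and 10.48 in 24-week mice 1 to 5 and at 10.84, 11.21 and 11.64 at 6 weeks (-0.46 ± 0.092 SE, limma adjusted p = 0.00107). Mice 1 and 2 lay just inside the young range. Top2a stood between 12.35 and 12.54 at 24 weeks and between 12.70 and 13.34 at 6 weeks, without overlap (adjusted p = 0.00145). Within series 12 all 6 were lower, from -0.48 for Mcm2 to -0.11 for Mcm5. The call of Mcm5 was lost without 24-week mouse 5 (adjusted p = 0.0547). With number series as a random block 7 genes of the list passed as lower and 0 as higher. Mcm7, the remaining subunit of the helicase, stood at -0.32 without passing, and the mitosis genes Cdk1, Aurka and Plk1 stood at -0.06, -0.02 and -0.10. Erythroid genes, which make up much of the dividing marrow, gave 0 calls of 18, with a median of -0.35. With number series as a random block 4 erythroid genes passed as lower, and 1 did in the fit of the 14 arrays alone. The median was -0.68 with the random block and -1.08 with number series as a fixed block. In NeuT+ mice of series 12, on which the fixed block also draws, it was -1.87. Stem cell genes gave 0 calls of 9 (median -0.03).

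Of the 5 Mcm genes that fell, the promoters of Mcm2, Mcm3, Mcm5 and Mcm6 were searched, and the 3 that held a match are shown. Capitals mark TTTCGCGC or TTTGGCGC on either strand, forms of the element bound by E2F factors, and matches that overlap run together. Mcm3 held 1 match, Mcm5 2 and Mcm6 3, the promoter of Mcm2 held 0, and 0.833% of 27025 promoters of this length hold at least 1. Mcm3 lies on the minus strand at chr1:20820263-20820562, Mcm5 on the plus strand at chr8:75109259-75109558 and Mcm6 on the minus strand at chr1:128359656-128359955.
Mcm3: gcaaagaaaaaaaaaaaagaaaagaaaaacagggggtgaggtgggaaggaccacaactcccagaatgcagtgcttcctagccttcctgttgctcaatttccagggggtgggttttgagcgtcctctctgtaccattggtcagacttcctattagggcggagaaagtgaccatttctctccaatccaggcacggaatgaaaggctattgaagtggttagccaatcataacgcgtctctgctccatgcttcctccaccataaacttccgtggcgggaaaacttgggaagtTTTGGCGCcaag
Mcm5: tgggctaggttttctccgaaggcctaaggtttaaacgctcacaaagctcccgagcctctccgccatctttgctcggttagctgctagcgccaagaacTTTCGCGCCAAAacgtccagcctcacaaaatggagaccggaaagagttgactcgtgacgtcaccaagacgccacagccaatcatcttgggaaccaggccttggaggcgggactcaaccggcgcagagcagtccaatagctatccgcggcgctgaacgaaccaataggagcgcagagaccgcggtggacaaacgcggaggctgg
Mcm6: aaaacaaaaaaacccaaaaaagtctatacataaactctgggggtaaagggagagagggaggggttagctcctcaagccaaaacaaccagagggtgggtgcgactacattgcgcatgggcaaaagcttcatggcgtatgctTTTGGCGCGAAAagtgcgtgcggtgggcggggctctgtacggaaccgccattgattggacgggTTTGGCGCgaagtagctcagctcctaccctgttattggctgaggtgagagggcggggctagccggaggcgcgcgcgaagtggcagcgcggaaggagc

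Genes of juvenile growth were among those that fell. Igf2bp3, an RNA-binding protein typical of fetal tissue, stood at 5.45, 5.34, 5.37, 5.22 and 4.92 in 24-week mice 1 to 5 and at 6.04, 6.85 and 8.19 at 6 weeks. It was detected on 8 of 9 arrays at 6 weeks, 1 of 9 at 12 weeks and 0 of 5 at 24 weeks, and was at least 1.67-fold lower (log2 change -1.79 ± 0.250, limma adjusted p = 6.15e-06). The groups did not overlap, and the fall within series 12 was -1.19. Cdkn1c, an imprinted inhibitor of the cell cycle, stood between 6.89 and 7.14 at 24 weeks and between 7.35 and 7.63 at 6 weeks (-0.44 ± 0.135, adjusted p = 0.0293). Its call was lost without 24-week mouse 4 (adjusted p = 0.121), mouse 3 or mouse 5, or 6-week mouse 4. Igf1, the insulin-like growth factor, stood at 8.07 in mouse 1 and between 6.11 and 6.96 in mice 2 to 5, against 7.35, 8.24 and 8.72 at 6 weeks (-1.10 ± 0.218, adjusted p = 0.00107). The other 11 measured genes of the list did not pass.

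Some immediate early and inflammatory genes were higher at 24 weeks, with wide spread among the young mice. Of 19 immediate early genes 7 were higher and 0 lower (median 0.84), and of 23 inflammatory genes 4 were higher and 0 lower (median 0.37). With number series as a random block 0 genes of either list passed, and the medians were -0.38 and 0.0028 with the series as a fixed block. The fixed block also draws on NeuT+ mice of series 12, in which the 2 medians were -1.24 and -0.05. Egr1, a transcription factor induced within minutes of stimulation, stood at 12.36 in 24-week mouse 1 and at 14.38, 13.99, 14.46 and 14.72 in mice 2 to 5, against 10.34, 12.79 and 14.22 at 6 weeks. The groups overlapped, and the 6-week means were 12.84, 13.51 and 10.41 in series 12, 14 and 17. Egr1 rose by 1.73 ± 0.579 (limma adjusted p = 0.0463). Its relative Egr2 stood at 7.34, 9.07, 8.16, 9.36 and 9.63 and at 5.78, 7.05 and 8.03 (1.79 ± 0.47, adjusted p = 0.011). Fos, a subunit of the AP-1 factor, rose by 0.84 ± 0.232, Zfp36, an RNA-binding protein that ends cytokine messages, by 0.76 ± 0.191 and Klf4 by 1.14 ± 0.340.

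The cytokine genes showed the same order of mice. Tnf stood at 9.62 in mouse 1 and at 10.93, 10.55, 10.94 and 11.21 in mice 2 to 5, against 8.48, 9.28 and 10.10 (1.35 ± 0.297, adjusted p = 0.00292). The chemokine gene Ccl3 stood at 11.24 in mouse 1 and between 12.58 and 12.96 in the others, against 9.29, 11.43 and 12.08 (1.58 ± 0.49, adjusted p = 0.0331). Cd14, the co-receptor for bacterial lipopolysaccharide, rose by 1.12 ± 0.277. The direction of some of these genes differed between the fits, and the cause of this was not tested. Within series 12 the median of the immediate early list was 0.08, with Egr1 at -0.48 and Ccl3 at -0.22, and with the fixed block Egr1 and Ccl3 stood at -0.89. Leaving out 24-week mouse 4 ended the calls of Egr1 (adjusted p = 0.155), Egr2 (0.0642), Fos (0.0755), Zfp36 (0.0582), Klf4 (0.121), Ccl3 (0.125) and Cd14 (0.0651), and leaving out mouse 5 ended the same calls except those of Zfp36 and Cd14. The 12-week mice, at means of 14.18 for Egr1 and 12.37 for Ccl3, were near the 24-week means of 13.98 and 12.50.

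Stress genes gave 4 calls of 18, all higher (median 0.28). With number series as a random block 2 passed, and the median was 0.09 with it, -0.06 with the fixed block and 0.04 within series 12. Hspa1a, an inducible heat shock chaperone, stood at 11.71, 11.86, 11.29, 11.38 and 11.42 at 24 weeks. The 6-week mice ran from 6.85 through a median of 8.35 to 12.46, so that the old mice were alike and the young mice widely spread. Hspa1a was 5.35-fold higher (2.42 ± 0.707, limma adjusted p = 0.0229), with 2.97 within series 12, and its near copy Hspa1b may share its RNA. The call was lost without 24-week mouse 2, 4 or 5 or 6-week mouse 1 or 2 (adjusted p from 0.0508 to 0.0683). The other 3 were Xbp1, Sdf2l1, a chaperone partner in the endoplasmic reticulum (0.40 ± 0.127), and Chac1, a glutathione-degrading enzyme (0.80 ± 0.262). Both of the latter were lost without 24-week mouse 4 (adjusted p of 0.247 and 0.161).

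Several of the widest differences lay outside the lists. Ces1d, a carboxylesterase of a family of close relatives, stood at 9.18, 9.77, 9.57, 9.52 and 9.57 in 24-week mice 1 to 5 and at 5.86, 7.05 and 7.39 at 6 weeks. The groups did not overlap, and the gene was 6.52-fold higher (2.71 ± 0.264, limma adjusted p = 4.6e-10), with 3.04 within series 12 (adjusted p = 0.00903). Chst1, a sulfotransferase that modifies keratan chains, stood between 7.48 and 8.22 at 24 weeks and at 5.42, 6.12 and 6.57 at 6 weeks, where 3 of 9 arrays detected it (1.80 ± 0.184, adjusted p = 1.46e-09). With undetected arrays set at the lowest detected signal the difference was 1.51. The 12-week mean of 6.93 lay between the means of the younger and older mice, 6.03 and 7.83. Astn2, named after its value was seen, was detected on 4 of 5 arrays at 24 weeks and on none at the earlier ages, and was at least 1.25-fold higher (adjusted p = 1.46e-09). C130026I21Rik rose by 1.64 ± 0.317 without overlap. Oosp1, known as a secreted protein of oocytes, was at least 1.73-fold higher (adjusted p = 4.37e-06), with 5.96 in mouse 1 against 5.95 in the highest young mouse.

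T-cell, antigen presentation and clock genes gave scattered calls. Of 12 T and NK cell genes 3 rose and 1 fell (median 0.07). Cd3g (0.73 ± 0.197, without overlap) and Cd3d (0.46 ± 0.140), CD3 chains of the T-cell receptor complex, and Nkg7 rose, and Il7r fell. Both Cd3 calls were lost without 24-week mouse 4 (adjusted p of 0.0573 and 0.104). Of 8 genes of MHC class II presentation H2-DMa (0.34 ± 0.0997) and H2-DMb1 (0.40 ± 0.130), which load peptides, rose, and H2-Ob, their inhibitor in B cells, fell (-0.81 ± 0.253). These calls were also lost without mouse 4 (adjusted p of 0.0816, 0.0913 and 0.235). Of 9 dendritic cell genes 1 rose, the transcription factor gene Batf3 (0.71 ± 0.199), a call that was lost without mouse 4 (adjusted p = 0.0598). Of 13 clock genes Arntl, the core activator, and Tef fell (-0.88 ± 0.276 and -0.52 ± 0.173), and both were lost without mouse 4 (adjusted p of 0.191 and 0.134). Of 13 ribosomal protein genes 1 fell, Rpl4, with an adjusted p of 0.1 without mouse 4. The interferon (18 genes, median 0.21), senescence and p53 (12, median 0.09), megakaryocyte (12, median 0.11), mitochondrial (21, median -0.05), osteoclast (7) and muscle (6) lists gave 0 calls each. At an unadjusted p of 0.05, 2894 of all genes passed.

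The comparison was repeated in sets of mice that share no array, because a single number series held both ages. In series 12 alone, with 1 mouse of 24 weeks against 3 of 6 weeks and the spread taken from the other groups, 7 genes passed (0.0619%). They were Ighg1, Jchain, Tnfrsf17, Ces1d, Astn2, Olfm4 and Tnfsfm13, all higher, and 496 genes had an unadjusted p under 0.05. Without series 12, in 4 mice of series 13 against 6 of series 14 and 17, 1115 genes passed (9.86%), 553 higher and 562 lower. Of these 735 had the same sign in series 12 (65.9%), against 56.2% of all genes. The share was 401 of 553 among the higher and 334 of 562 among the lower genes. Across the 1115 genes the 2 sets of changes correlated at r = 0.44, and across all 11309 genes at r = 0.17, as a description over genes, which are not independent. The list medians in series 12 and without it were 0.14 and 0.43 for plasma cell genes and -0.23 and -0.22 for stromal genes. They were -0.29 and -1.46 for macrophage genes, and 0.26 and -0.90 for pro-B and pre-B genes. The stromal medians include genes that none of the 14 compared arrays detected, such as Pdgfra (-0.14 and -0.19) and Col3a1 (-0.10 and -0.02).

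**Figure D4:**
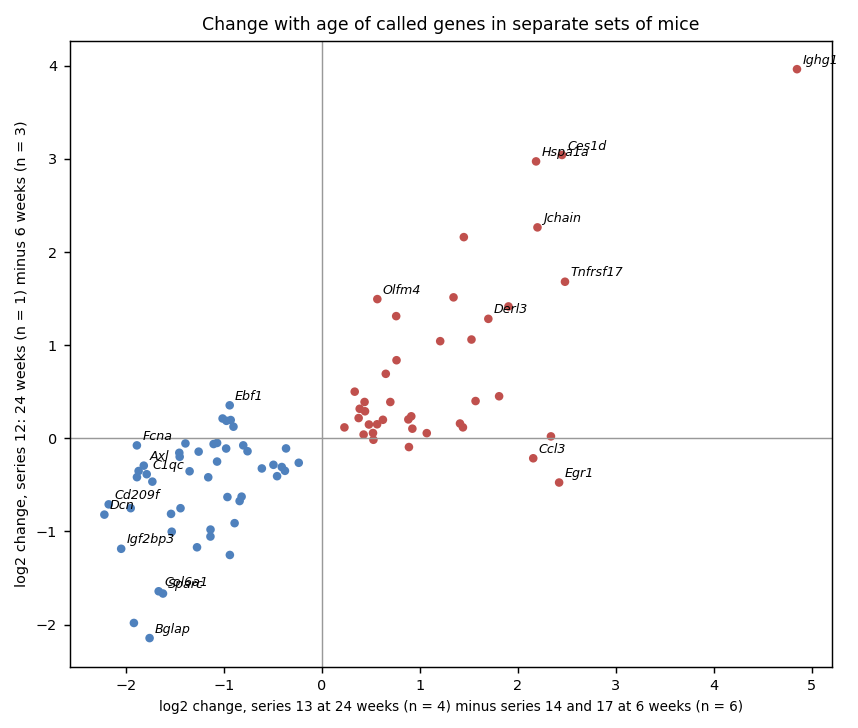
Log2 change of the called named genes in 2 sets of mice that share no array, with series 13 at 24 weeks minus series 14 and 17 at 6 weeks on the x axis (n = 4 and 6) and series 12 on the y axis (n = 1 and 3), red for genes higher and blue for genes lower at 24 weeks. Ighg1 (4.85 and 3.96), Ces1d, Jchain and Tnfrsf17 lie far from 0 on both axes, while Egr1 (2.42 and -0.48), Fcna (-1.89 and -0.08) and Ebf1 (-0.94 and 0.35) lie near 0 or across it on the y axis.

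The span of ages was also measured in NeuT+ mice, which share no array with the normal mice but carry tumors at 24 weeks. They came from the same number series as the normal mice of their age. Age and series are thus tied in the same way in both genotypes, and the same sign in both does not tell them apart. Of the 1209 genes, 1189 changed with the same sign in NeuT+ mice (98.3%), against 79.6% of all genes. Ighg1 changed by 5.28, Ces1d by 1.77, Chst1 by 2.46, Igf2bp3 by -2.61, Sparc by -3.22 and Axl by -0.68. A test of the difference between the genotypes' changes called 547 genes (4.84%), and 184 of them were among the 1209, 63 of the higher and 121 of the lower genes. The difference passed for 8 of 12 pro-B and pre-B genes and 7 of 12 mature B-cell genes, and it was a smaller fall in normal marrow for each named here. The difference, the NeuT- change minus the NeuT+ change, was 1.85 for Cd79b (-0.70 and -2.55, limma adjusted p = 0.000129), 1.45 for Ebf1 (-0.67 and -2.12, adjusted p = 0.000203) and 1.82 for Blk (-0.90 and -2.71, adjusted p = 0.000259). Bglap fell by 1.90 in normal and 5.02 in NeuT+ marrow, a difference of 3.12 (adjusted p = 0.00462).

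Jchain and Tnfrsf17 rose more in normal marrow, by a difference of 0.99 for Jchain (2.19 and 1.20, adjusted p = 0.0139) and of 0.94 for Tnfrsf17 (2.32 and 1.39, adjusted p = 0.00619). Neither gene was detected in normal marrow at 6 weeks, so the sizes of these differences are uncertain. Of the 10 called macrophage genes 2 fell more in normal marrow, C1qb with a difference of -1.08 (-1.55 and -0.47, adjusted p = 0.0457) and Cd163, a scavenger receptor, with -1.49 (adjusted p = 0.0407). Il1r2 rose by 0.66 in normal and 1.99 in NeuT+ marrow (difference -1.33, adjusted p = 0.00394). The genes with the smallest p of this difference were Traf3ip2, an adaptor of interleukin-17 signalling (1.38 ± 0.193, adjusted p = 7.37e-05), Apbb1 (1.63), St6gal1, a sialyltransferase abundant in B cells (1.57), Myzap (2.06), Hivep3 (1.19), Mcoln2 (1.39), Cd79b, the B-cell co-stimulatory receptor Cd40 (1.72), Gja5 (-1.38) and Scml4 (1.14). Of these 10 genes, Cd79b and Hivep3 also changed in normal marrow (Hivep3 -0.64 ± 0.136), and Apbb1 stood at 0.00 and Traf3ip2 at -0.07 there. The count of 547 was 333 without 24-week mouse 1.

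**Figure D5:**
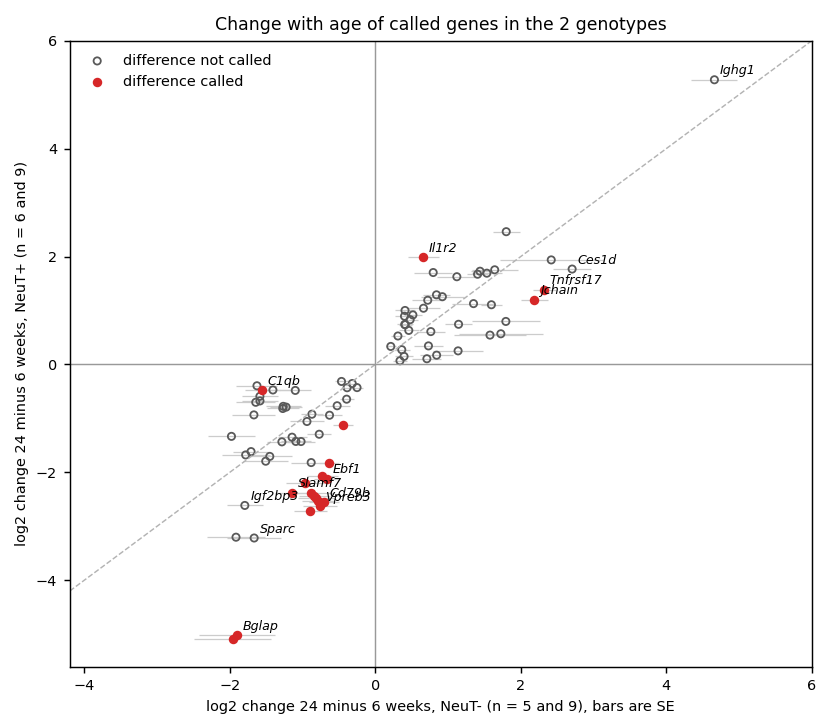
Log2 change from 6 to 24 weeks of the called named genes in NeuT- mice (x axis, n = 5 and 9, bars are SE) and in NeuT+ mice (y axis, n = 6 and 9), with the dashed line where both are equal and filled red points where the difference between the genotypes passed. Bglap (-1.90 and -5.02) and the B-lineage genes lie below the line, Il1r2 (0.66 and 1.99) lies above it, and Jchain and Tnfrsf17 lie below it on the side of the rise.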

How the data were processed

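Bone marrow RNA was measured on 52 Illumina mouse arrays, 47 of single mice and 5 of reference RNA. Intensity values and detection p-values per probe were deposited unnormalized, per the file headers. The authors' deposited log2 values were normalized with lumi, per the labels, and have medians from 6.90 to 6.93. The labels name a DASL assay and the design text another amplification kit, and which was used is not settled here. From the deposited intensities, neqc in limma 3.58.1 (R 4.3.3, offset 16) subtracted background and applied quantile normalization, which puts all levels on a log2 scale. Of 45281 probes, 34885 have 1 gene symbol, 18 have several and 10378 are not listed. A probe was kept if its detection p-value was under 0.01 on at least 1 array, and the brightest probe stood for a gene, which left 11309 genes. Signal over background and the number of arrays limit the precision.

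Groups came from the labelled age and genotype. The 6 groups of mice were fitted together with lmFit and eBayes, p-values were adjusted over all genes by the Benjamini-Hochberg method at 0.05, and errors are standard errors unless given as SD. The fit within series 12 takes its spread from the other groups. Alternatives covered the normalization, the filter, the probes, array weights, number series and single arrays. Named genes were the 12 highest and 12 lowest called changes detected on most arrays of the brighter group, up to 4 members of each list by p and the 2 brightest, and the 10 smallest interaction p. Other genes are named where a count is spelled out or were named after their values were seen. The members and lists were chosen with earlier results of these data known. List genes that were not measured are not analysed here. No arrays held identical values. Each array is labelled as 1 mouse, and the p-values measure the spread between these mice. On simulated data 61.2% of genes changed by 0.5 log2 units and 95.5% of those changed by 1 were recovered. The simulated arrays were independent, with no shared effect of number series, so the rates for the real arrays may differ.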

Additional observations from a re-analysis of the deposited data

Results flagged for a closer look

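Of 248 groups of values examined, 13 had an end value far from the rest, a rate at which chance alone flags about 1 group in 20. At 24 weeks, mouse 1 stood apart for 3 called genes. It was at 11.24 for Ccl3 against 12.58 to 12.97 in the other mice, at 6.88 for Ccr3 against 4.95 to 5.38, and at 7.21 for Stab2 against 6.50 to 6.65. Mouse 4 of the same age was low for the mean level of the marrow identity list, at 14.20 against 14.29 to 14.31.

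At 6 weeks, mouse 4 was low for Fkbp11 (7.82 against 8.95 to 9.95) and high for Top2a (13.34 against 12.70 to 12.88). The same mouse was low for the T and NK cell list (8.94 against 9.35 to 9.68), the skeletal muscle list (6.01 against 6.32 to 6.6) and the mitochondrial list (12.17 against 12.52 to 12.83). Mouse 8 was low for Hivep3 (8.91 against 9.45 to 9.90) and for the pro-B and pre-B list (9.63 against 10.14 to 10.67). Mouse 9 was low for Robo4 (7.03 against 7.60 to 8.07) and for the complement list (8.45 against 8.75 to 9.03).

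The change from 6 to 24 weeks differed between the genotypes for 27 named genes by the limma test of that difference, given here as the NeuT- change minus the NeuT+ change. Among B-lineage genes it was 1.82 for Blk (adjusted p = 0.000259), 1.61 for Cd22 (0.000476), 1.85 for Cd79b (0.000129), 1.45 for Ebf1 (0.000203), 1.75 for Fcrla (0.000254), 1.67 for H2-Ob (0.002), 1.5 for Igll1 (0.0239), 1.34 for Il7r (0.00348), 1.24 for Lef1 (0.0361) and 1.87 for Vpreb3 (0.000257). It was 3.12 for Bglap (0.00462), 3.13 for Bglap2 (0.00589) and 0.69 for Cdkn1c (0.0191), which fell less in NeuT- mice. It was 0.99 for Jchain (0.0139) and 0.94 for Tnfrsf17 (0.00619), which rose more in NeuT- mice, and 1.24 for Slamf7 (0.0162), which fell less. The sizes for Jchain and Tnfrsf17 are uncertain, since neither was detected in normal marrow at 6 weeks. The difference was -1.08 for C1qb (0.0457), which fell more, and -1.33 for Il1r2 (0.00394), which rose less.

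Among the genes named for the smallest p of the difference, it was 1.38 for Traf3ip2 (adjusted p = 7.37e-05), 1.63 for Apbb1 (0.000118), 2.06 for Myzap (0.000118) and 1.57 for St6gal1 (0.000118). It was 1.72 for Cd40, 1.19 for Hivep3, 1.14 for Scml4, 1.39 for Mcoln2 and -1.38 for Gja5, each with an adjusted p of 0.000129.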

How the results depend on the processing

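No paired analysis was possible because the labels carry no replicate numbers that the ages share. The 1209 calls became 389 with median scaling, 2565 with array quality weights, 651 with number series as a random block, 164 in a fit of the 14 arrays alone, 574 in the 23 NeuT- arrays alone, 7 in series 12 alone, 787 without the 6-week arrays of series 14 and 2235 without those of series 17. The other alternatives that kept all 14 arrays, the deposited values included, gave 955 to 1283. Leaving out 1 array gave 307 (without 24-week mouse 4) to 1931 (without 24-week mouse 1). The 547 calls of the difference between genotypes became 1117 and 1035 with number series as a fixed and a random block, and 333 to 818 when 1 array was left out. The difference in detected probes, -290.9, ran from -544.2 to -122.4 when 1 array was left out. Of the alternative values of the 89 called named genes, 2211 kept direction and call, 533 lost the call and 15 turned direction. With the fixed block these were Ccl3 (-0.89), Egr1 (-0.89), Egr2 (-0.48), Fos (-0.21), Klf4 (-0.31) and Zfp36 (-0.050). In series 12 alone they were Ccl3 (-0.22), Cd79b (0.20), Ebf1 (0.35), Egr1 (-0.48), Fcrla (0.21), Il1r2 (-0.095), Il7r (0.12), Ms4a3 (-0.016) and Vpreb3 (0.19). The cause of these reversals was not tested. Chosen after seeing the data, setting undetected arrays at the lowest detected signal gave -0.36 for Ccr3, -1.01 for Cd209f, -1.05 for Adipoq and 1.51 for Chst1. Of the 89 genes 45 kept their call whichever array was left out, and 43 of the other 44 lost it without 24-week mouse 4. The median of the macrophage list was -0.90 with the deposited values and -0.85 without background correction, against -1.38, and that of the stromal list was -1.14 with probes detected on 3 of the 14 arrays, against -0.22. Genes detected on no array of 1 age have only bounds, and those detected on few are uncertain in size. The brightest probes lie where little difference can show, and 1 mouse at 24 weeks limits the comparison within series 12.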
